A study of Saccharomyces cerevisiae with 48 samples.

Results

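The 8 core histone genes of budding yeast lie in 4 divergent pairs, *HTA2*-*HTB2* and *HHF1*-*HHT1* on chromosome II, *HTB1*-*HTA1* on chromosome IV and *HHT2*-*HHF2* on chromosome XIV, and their replication was followed here through a single S phase. The members were chosen by position, as the 1-kb bins that start within 5 kb of each pair: 52 bins were named by this rule and 44 were present, of 11338 bins in all. The windows of *HTA2*-*HTB2* and *HTB1*-*HTA1* held 13 of 13 bins, and those of *HHF1*-*HHT1* and *HHT2*-*HHF2* held 9 of 13. The absent bins next to *HHT1* (chrII:259001-263000) overlap a Ty1 element, and those next to *HHT2* (chrXIV:570001-574000) hold *YNL034W* and *YNL033W*. In the reference, 94.4% or more of the 50-base sequences starting in each present bin were unique, against 0 to 74.5% in the absent bins.

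Genomic DNA was sequenced from 4 strains of *Saccharomyces cerevisiae* at 11 times from 5 to 60 min after release from a G1 arrest, which gave 44 S-phase samples, each expressed as a ratio to the G1 sample of its strain. All strains are W303 *MATa* cells with the alleles *rad5-535*, *can1-100*, *leu2-3, 112*, *his3-11, 15*, *ade2-1*, *trp1-1* and *ura3-1*, and all lack *SML1*, whose product inhibits ribonucleotide reductase, so the controls carry this deletion too. The strains named *SSDDCS* also carry extra copies of the limiting initiation factors Cdc45, Dbf4, Dpb11, Sld2, Sld3 and Sld7 under the galactose-inducible *GAL1-10* promoter, with Sld3 and Dbf4 given in the labels as SLD3-A and Dbf4-A, and galactose was given to the arrested cells of every strain. The *sml1∆ SSDDCS* and *sml1∆* strains were each made without the origins *ARS1008* and *ARS1009* of chromosome X, or without *ARS816* and *ARS818* of chromosome VIII. None of the deleted origins lies on a chromosome that carries a core histone gene pair. Per the labels, *SML1* was replaced with HphNT in the *SSDDCS* strains and with *URA3* in the others. The study's strain list names HphMX for the *sml1∆ SSDDCS* strain with these origins intact. It also gives *LEU2*, *HIS3* and *TRP1* as markers of the inserted factors, and none of these for the *sml1∆* strains. The effects of all these markers and of the initiation factors cannot be told apart. The list also gives KanMX for both strains without *ARS816* and *ARS818*, and not for those without *ARS1008* and *ARS1009*. KanMX thus differs between the origin backgrounds and not within them.

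*HTA1* and *HTA2* encode histone H2A, *HTB1* and *HTB2* histone H2B, *HHT1* and *HHT2* histone H3, and *HHF1* and *HHF2* histone H4. Each pair is read outwards from a shared promoter that is switched on as cells enter S phase, when new nucleosomes are needed behind the replication forks. A replicating chromosome is copied outwards from origins, marked in yeast by a short AT-rich element called the ARS consensus sequence that the origin recognition complex binds, so a gene close to an origin that fires early is duplicated early. Centromeres recruit the Dbf4-dependent kinase and are known to be copied early.

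Each of the pairs on chromosomes II and IV lies beside an annotated origin, on the 3′ side of one of its genes. *ARS208* (chrII:237787-237900) starts 0.9 kb beyond *HTB2* (chrII:236492-236887, plus strand), *ARS209* (chrII:254998-255083) ends 0.29 kb from *HHF1* (chrII:255373-255684, minus strand), and *ARS428* (chrIV:913790-914038) ends 0.279 kb from *HTB1* (chrIV:914317-914712, minus strand). *ARS429* (chrIV:921692-921939) lies 5.76 kb beyond *HTA1* (chrIV:915530-915928, plus strand). Of the 4 origins shown, *ARS208*, *ARS209* and *ARS428* are the annotated origins nearest to the pairs that were replicated early. *ARS429* is the nearest on the other side of *HTB1*-*HTA1*. All 4 are given on the plus strand of the R64 (sacCer3) reference from RefSeq, with the best matches on either strand to the 11-base ARS consensus sequence in capitals (overlapping matches run together).
ARS208: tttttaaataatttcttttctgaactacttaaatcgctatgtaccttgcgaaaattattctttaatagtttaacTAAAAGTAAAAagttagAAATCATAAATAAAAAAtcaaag
ARS209: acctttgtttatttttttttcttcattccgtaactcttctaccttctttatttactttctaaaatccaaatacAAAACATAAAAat
ARS428: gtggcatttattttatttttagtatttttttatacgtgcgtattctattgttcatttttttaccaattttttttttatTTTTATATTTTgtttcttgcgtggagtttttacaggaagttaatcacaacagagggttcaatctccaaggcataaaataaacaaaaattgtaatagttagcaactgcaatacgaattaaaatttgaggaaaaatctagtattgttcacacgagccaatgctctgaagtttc
ARS429: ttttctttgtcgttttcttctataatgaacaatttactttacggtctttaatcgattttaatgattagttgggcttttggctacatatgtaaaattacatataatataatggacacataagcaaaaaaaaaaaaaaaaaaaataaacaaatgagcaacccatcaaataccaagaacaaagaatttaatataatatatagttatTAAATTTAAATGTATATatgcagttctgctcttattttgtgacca
*ARS209* and *ARS428* each held 1 match at 11 of 11 positions, on the minus and the plus strand respectively. *ARS208* matched at 10 of 11 positions at 3 sites and *ARS429* at 2 sites. Of 352 annotated origins, 124 (35.2%) held a full match and 300 (85.2%) a match at 10 or more positions. A full match was found in 0.499% of all genome windows as long as *ARS209* and in 1.54% of those as long as *ARS428*, and 10 or more positions were matched in 11.0% of windows as long as *ARS208* and 22.8% of those as long as *ARS429*.

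*HHT2*-*HHF2* is placed differently. *HHT2* (chrXIV:575640-576050, minus strand) and *HHF2* (chrXIV:576727-577038, plus strand) lie 7.12 kb from *ARS1423*, an origin annotated as putative that held no match at 10 or more positions, and 32.5 kb from *ARS1424* on the other side. From 1 kb before to 1 kb after the pair there was no full match to the consensus, as was also so at *HTA2*-*HTB2*, against 3 at *HHF1*-*HHT1* and 2 at *HTB1*-*HTA1*. The regions around *HHF1*-*HHT1* and *HTB1*-*HTA1* take in *ARS209* and *ARS428*, whose full matches are counted here again. The share of genome regions of this length with a full match was not computed. *HTA2*-*HTB2*, with *HTA2* at chrII:235394-235792 on the minus strand, is 1.38 kb from the centromere of its chromosome, and *HHF1*-*HHT1*, with *HHT1* at chrII:256331-256741 on the plus strand, is 17.1 kb from the same centromere. *HTB1*-*HTA1* is 464.6 kb and *HHT2*-*HHF2* 51.8 kb from a centromere.

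The copies of each gene are alike in sequence, with 93.7% identical coding bases between *HTA1* and *HTA2*, 87.9% between *HTB1* and *HTB2*, 93.2% between *HHT1* and *HHT2*, and 97.4% between *HHF1* and *HHF2*. The longest identical run, 80 bases in *HHF1* and *HHF2*, is longer than the 50 bases checked above, so part of the coding sequence is not unique at that length. Values without the bins that hold coding sequence are given with the alternatives.

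The replication time of a bin, *T*_rep_, was the time at which a logistic curve from 1 copy to 2 copies, fitted to its 11 ratios, passed 1.5. Its percentile is the share of all fitted bins in that strain with an earlier *T*_rep_. Each strain had 1 time course, so no difference between strains has a replicate check, no test was made, and every SD below is a spread over neighbouring bins that share replication forks. The files hold ratios without read counts, so the depth behind each ratio is unknown. The genome median of *T*_rep_ was 16.1 min in *sml1∆ SSDDCS* and 22.3 min in *sml1∆* without *ARS1008* and *ARS1009*, and 20.7 and 25.2 min in the strains without *ARS816* and *ARS818*, from 11321 to 11326 fitted bins.

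In the *sml1∆* strains, 3 of the histone gene pairs were among the earliest replicated parts of the genome and *HHT2*-*HHF2* was not. *HTB1*-*HTA1* was replicated at 14.6 ± 0.989 min (SD, 13 bins) in the strain without *ARS1008* and *ARS1009* and at 19.6 ± 1.303 min in the strain without *ARS816* and *ARS818*, the 3.35 and 4.23 percentiles of the genome. *HTA2*-*HTB2* was replicated at 15.5 ± 1.28 and 19.9 ± 1.23 min (13 bins), the 6.82 and 5.39 percentiles. *HHF1*-*HHT1* was replicated at 14.3 ± 1.18 and 20.2 ± 1.64 min (9 bins), the 2.46 and 7.25 percentiles. The gaps between neighbours in the order of these 3 pairs, 0.283 to 0.844 min, were smaller than the pooled SD of their bins, 1.09 to 1.45 min, and their order was not the same in both strains. *HHT2*-*HHF2* followed at 20.1 ± 1.22 and 23.8 ± 1.12 min (9 bins), the 34.6 and 36.9 percentiles, with gaps of 4.62 and 3.60 min to the pair before it against pooled SDs of 1.254 and 1.403 min. So the usual description of the core histone genes as early replicating held for the pairs on chromosomes II and IV, while *HHT2*-*HHF2* lay before the 50th percentile but outside the earliest 25%.

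Counted by bin, 36 of 44 histone bins in the *sml1∆* strain without *ARS1008* and *ARS1009*, and 35 of 44 in that without *ARS816* and *ARS818*, were in the earliest 25% of the genome, a share that holds 25.0% of all bins by construction. Of the 35 bins outside *HHT2*-*HHF2*, 35 and 34 were in it, against 1 of 9 bins of *HHT2*-*HHF2* in each strain.

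With *SSDDCS* the same count fell to 19 of 44 bins without *ARS1008* and *ARS1009* and 16 of 44 without *ARS816* and *ARS818*, against 25.0% of all bins. *HTB1*-*HTA1* kept an early place, at 11.9 ± 0.690 and 17.4 ± 1.67 min (13 bins), the 8.52 and 10.7 percentiles, with 13 and 10 of its bins in the earliest 25%. *HTA2*-*HTB2* was at 15.0 ± 2.07 and 19.7 ± 1.63 min, the 39.8 and 37.3 percentiles, with 3 and 4 of 13 bins in the earliest 25%. *HHF1*-*HHT1* was at 14.7 ± 3.70 and 19.5 ± 2.09 min, the 36.5 and 34.3 percentiles, with 3 and 2 of 9 bins in that share. In the first background the place of *HHF1*-*HHT1* changed with 1 sample: it was at the 19.6 percentile without the 5 min sample, and it was at 17.8 when *T*_rep_ was taken as the first crossing of 1.5. *HTA2*-*HTB2* in both *SSDDCS* strains, and *HHF1*-*HHT1* without *ARS816* and *ARS818*, stayed outside the earliest 25% whichever 1 timepoint was left out. By first crossing of 1.5, however, *HHF1*-*HHT1* without *ARS816* and *ARS818* was at the 23.8 percentile, inside the earliest 25%. *HHT2*-*HHF2*, at 21.6 ± 2.68 and 23.4 ± 1.91 min, was at the 87.1 and 76.0 percentiles, and 8 and 4 of its 9 bins were in the latest 25%, where none of its bins lay in the *sml1∆* strains.

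These percentiles set the mean of a window against single bins. Among sliding windows with the same number of bins, *HTB1*-*HTA1* was at the 0.489 and 0.635 percentiles in *sml1∆* and at 0.411 and 1.62 with *SSDDCS*, lower in the first background and higher in the second. *HTA2*-*HTB2* went from 2.49 and 1.602 to 37.7 and 35.8, *HHF1*-*HHT1* from 0.322 and 4.24 to 34.0 and 32.3, and *HHT2*-*HHF2* from 30.9 and 32.2 to 89.3 and 77.4.

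**Figure D1:**
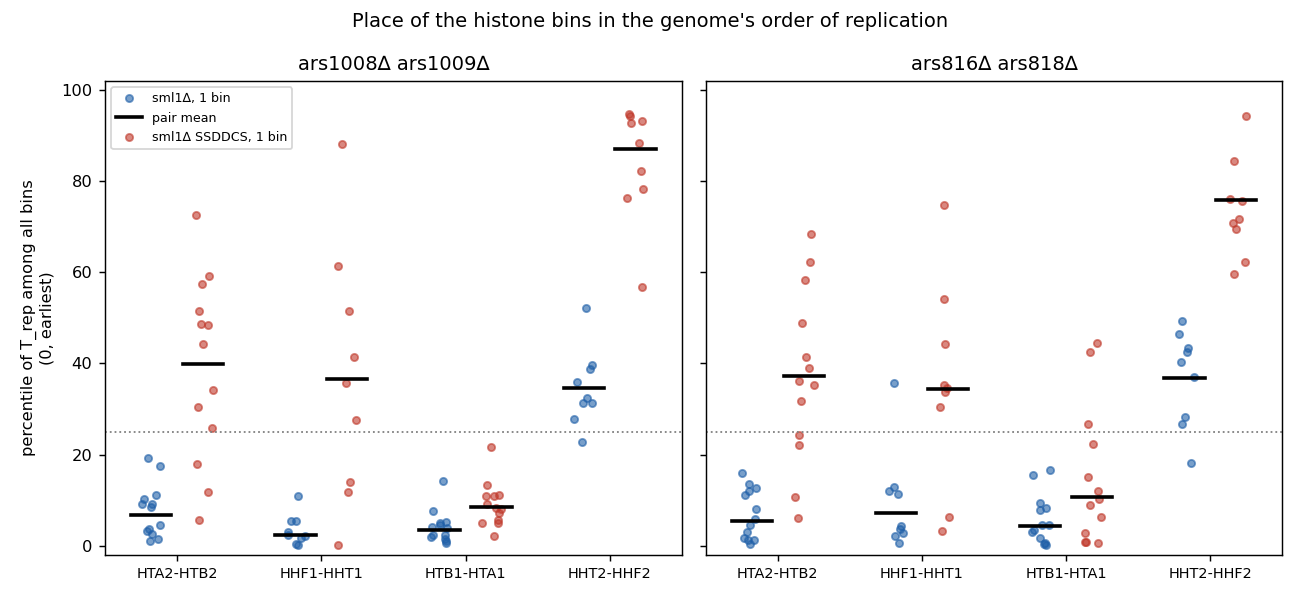
Percentile of *T*_rep_ among all bins of the strain (0 is earliest) for each 1-kb bin of the histone gene pairs (points) and for the mean *T*_rep_ of each pair (black bars), with the earliest 25% below the dotted line. In both panels the bins of *sml1∆* (blue) sit at the bottom at 3 pairs, while with *SSDDCS* (red) only *HTB1*-*HTA1* stays near the bottom and *HHT2*-*HHF2* lies highest.

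In the *SSDDCS* strains the gap between *HTB1*-*HTA1* and the next pair, *HHF1*-*HHT1*, was 2.85 min without *ARS1008* and *ARS1009* and 2.02 min without *ARS816* and *ARS818*, against pooled SDs of 2.66 and 1.89 min, and the bins of both pairs overlapped. *HHF1*-*HHT1* and *HTA2*-*HTB2* differed by 0.2998 and 0.221 min, less than their pooled SDs of 3.00 and 1.88 min. *HHT2*-*HHF2* was last in each of the 4 strains, here by 6.55 and 3.77 min against pooled SDs of 2.40 and 1.78 min.

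Set by gene, the bin that holds *HTB1* was at the 0.486 and 4.59 percentiles in the *sml1∆* strains and the 2.10 and 6.36 percentiles in the *SSDDCS* strains (without *ARS1008* and *ARS1009* first). The bin of *HTA1*, its partner, was at the 14.3 and 0.397 percentiles in *sml1∆* and 8.27 and 8.91 with *SSDDCS*. A single bin is an imprecise measure, since the bin of *HHF1* was at the 14.0 percentile in one *SSDDCS* strain and the 74.7 percentile in the other, where the mean over its window was at 36.5 and 34.3. The bins of *HHT2* averaged 90.8 and 87.7 and those of *HHF2* 88.3 and 87.6 in the *SSDDCS* strains, against 31.4 and 22.4, and 26.9 and 32.1, in the *sml1∆* strains. The genes of the H3-H4 pair on chromosome XIV, which is known to give more histone message than *HHF1*-*HHT1*, were therefore both late in the *SSDDCS* strains. Their values are not separate, since the bin chrXIV:576001-577000 holds part of each gene and counts for both.

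The ratios themselves show how these times arose. At *HTB1*-*HTA1* without *ARS1008* and *ARS1009*, the mean ratio in *sml1∆* was 1.03 at 5 min, 1.17 at 10 min, 1.57 at 15 min, 1.85 at 20 min and 1.91 at 25 min, and lay between 1.87 and 2.04 from 30 to 60 min. With *SSDDCS* it was 1.13 at 5 min, 1.41 at 10 min, 1.67 at 15 min, 1.93 at 20 min and 1.92 at 25 min, and between 1.93 and 2.001 from 30 to 60 min. This pair was thus ahead with *SSDDCS* in the early samples, by up to 0.232 at 10 min, and both strains were near 2 copies from 25 min on.

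At *HHT2*-*HHF2* in the same background, the mean ratio in *sml1∆* was 1.02 at 5 min, 1.03 at 10 min, 1.14 at 15 min, 1.61 at 20 min, 1.77 at 25 min and 1.87 at 30 min, and lay between 1.86 and 1.94 from 35 to 60 min. With *SSDDCS* it was 1.10 at 5 min, 1.22 at 10 min, 1.27 at 15 min, 1.46 at 20 min, 1.67 at 25 min and 1.76 at 30 min, and between 1.85 and 1.93 from 35 to 60 min. The curves crossed between 15 and 20 min, so that the *SSDDCS* strain had more copies of this pair from 5 to 15 min and fewer from 20 to 35 min. At 40 min it was slightly higher, at 1.897 against 1.875, and from 45 min it was lower again. Its largest excess was 0.184 at 10 min and its largest deficit -0.155 at 20 min.

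At the pairs of chromosome II the *SSDDCS* strain was also ahead at 10 and 15 min in both backgrounds and behind from 25 to 30 min. At *HTA2*-*HTB2* without *ARS1008* and *ARS1009* it was behind at 3 of 11 times and higher again from 35 min on. At *HTA2*-*HTB2* the ratio with *SSDDCS* exceeded that of *sml1∆* by up to 0.242 at 10 min and was lower by 0.175 at 20 min (*SSDDCS* minus *sml1∆*, -0.175) without *ARS1008* and *ARS1009*, and the values were 0.122 at 15 min and -0.175 at 30 min without *ARS816* and *ARS818*. At *HHF1*-*HHT1* they were 0.227 at 10 min and -0.206 at 20 min, and 0.170 at 15 min and -0.199 at 35 min. *HTB1*-*HTA1* without *ARS816* and *ARS818* had an excess of up to 0.204 at 15 min and a deficit of -0.133 at 35 min, while *HHT2*-*HHF2* had 0.117 at 15 min and -0.0856 at 40 min. In that background the *sml1∆* ratios of the histone windows rose above 2, to 2.11 at *HTA2*-*HTB2* and 2.10 at *HTB1*-*HTA1* at 35 min, with a genome median of 1.855, so deficits late in S phase include ratios above 2 copies in the control. A fit with a free upper asymptote is given with the alternatives.

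**Figure D2:**
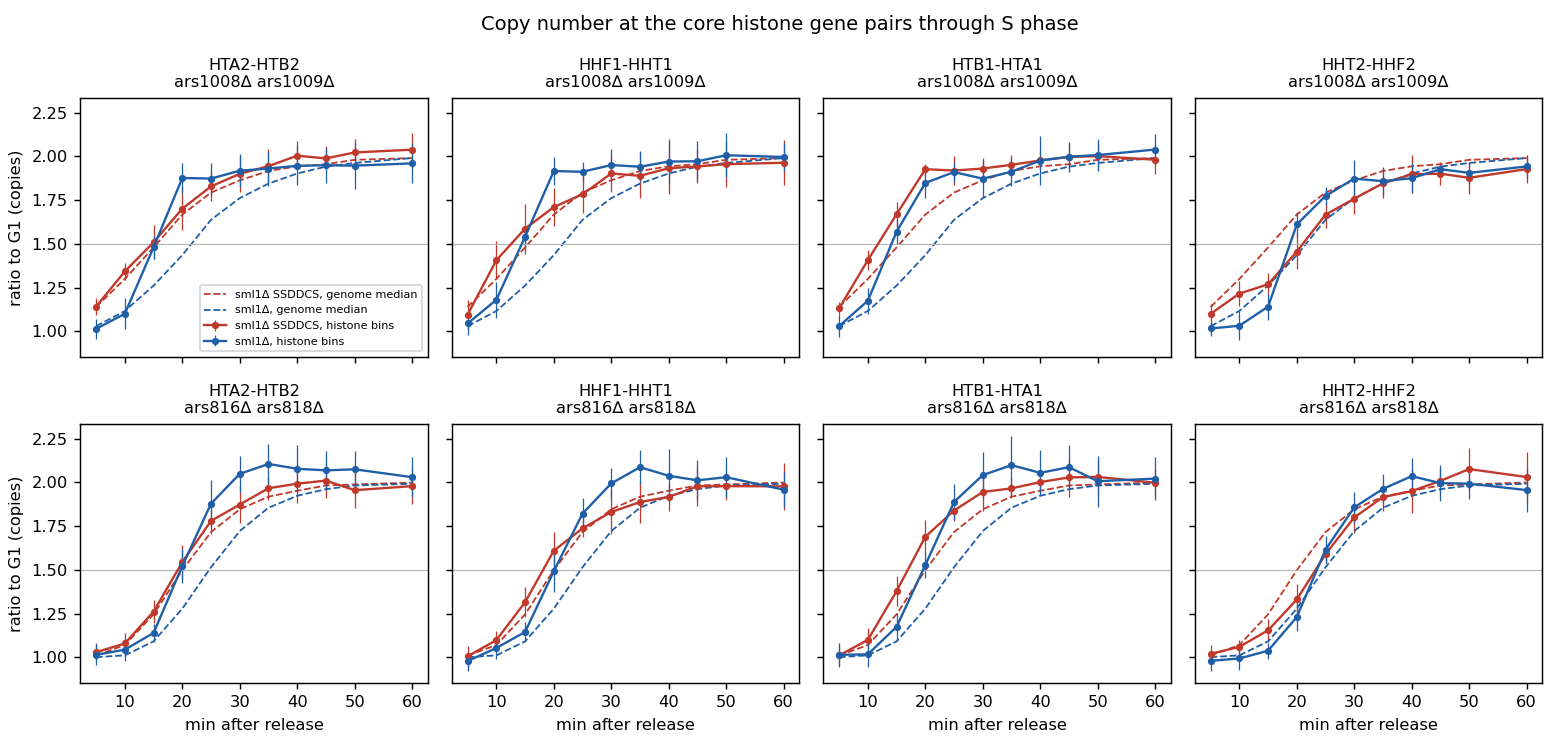
Ratio to G1 (copies) against min after release at each histone gene pair, as the mean and SD over its bins (solid lines, points and bars), with the genome median of the same sample (dashed lines), for *sml1∆ SSDDCS* (red) and *sml1∆* (blue). The blue solid line rises steeply away from its dashed line at each pair, while the red solid line stays near its dashed line at the pairs of chromosome II, above it at *HTB1*-*HTA1* and below it from 10 to 30 min at *HHT2*-*HHF2*.

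Set against the genome median of the same sample, the 3 early pairs stood out most in the *sml1∆* strains, and *HHT2*-*HHF2* with *SSDDCS*, where it was low. The ratio over the genome median reached 1.34 at *HHF1*-*HHT1*, 1.31 at *HTA2*-*HTB2*, 1.29 at *HTB1*-*HTA1* and 1.12 at *HHT2*-*HHF2*, each at 20 min, without *ARS1008* and *ARS1009*. Without *ARS816* and *ARS818* it reached 1.202, 1.24 and 1.246 at 25 min, in the same order, and 1.08 at 30 min. With *SSDDCS* the highest values at *HTB1*-*HTA1* were 1.16 and 1.13, both at 20 min. *HTA2*-*HTB2* came no higher than 1.03 and 1.04 and *HHF1*-*HHT1* no higher than 1.08 and 1.07. *HHT2*-*HHF2* fell to 0.858 of the genome median at 15 min and 0.888 at 20 min in these strains.

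Copy number also rose more steeply at the histone pairs in *sml1∆*. The time that a bin took to pass from 25% to 75% of its fitted rise had a genome median of 13.7 min without *ARS1008* and *ARS1009*, and medians of 6.54 min at *HTA2*-*HTB2*, 6.37 min at *HHF1*-*HHT1*, 7.45 min at *HTB1*-*HTA1* and 8.60 min at *HHT2*-*HHF2*. Without *ARS816* and *ARS818* it was 10.9 min in the genome and 5.68, 6.17, 5.88 and 6.85 min at the pairs. With *SSDDCS* and without *ARS1008* and *ARS1009*, the genome median was 14.8 min, with 14.9 min at *HTA2*-*HTB2*, 15.9 min at *HHF1*-*HHT1*, 8.63 min at *HTB1*-*HTA1* and 18.9 min at *HHT2*-*HHF2*. Without *ARS816* and *ARS818* these medians were 10.5 min in the genome and 10.1, 11.9, 8.72 and 10.5 min at the pairs. The rise at 3 pairs was therefore as slow as that of the genome, or slower, with *SSDDCS* in the first background, and close to it in the second, while *HTB1*-*HTA1* rose faster than the genome median in both. The synchrony of the cells within each course was not tested.

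The difference between strains was taken as *T*_rep_ in *sml1∆ SSDDCS* minus *T*_rep_ in the *sml1∆* strain with the same origins deleted. Over the genome its median was -5.51 min without *ARS1008* and *ARS1009* and -4.18 min without *ARS816* and *ARS818*, and 89.7% and 89.1% of all bins were earlier with *SSDDCS* in min after release. Of the histone bins, 27 of 44 and 31 of 44 were earlier. At *HTB1*-*HTA1* the difference was -2.75 ± 0.982 min (SD, 13 bins) and -2.16 ± 2.45 min, and the first exceeded the SD over its bins. It was -0.447 ± 1.59 and -0.202 ± 1.83 min at *HTA2*-*HTB2*, 0.425 ± 3.08 and -0.772 ± 2.63 min at *HHF1*-*HHT1*, and 1.48 ± 2.14 and -0.375 ± 2.74 min at *HHT2*-*HHF2*, each smaller than the SD over bins. In minutes after release, the pairs other than *HTB1*-*HTA1* thus differed between the strains by less than the spread of their bins.

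Relative to the genome-wide median difference, each pair was later with *SSDDCS*. The relative difference was 6.99 min at *HHT2*-*HHF2*, 5.93 min at *HHF1*-*HHT1*, 5.06 min at *HTA2*-*HTB2* and 2.75 min at *HTB1*-*HTA1* without *ARS1008* and *ARS1009*, above 94.97%, 91.4%, 87.7% and 72.5% of all bins. Without *ARS816* and *ARS818* it was 3.80, 3.41, 3.98 and 2.02 min, above 86.9%, 83.7%, 87.9% and 70.6% of all bins, which again sets the mean of a window against single bins. The last value, at *HTB1*-*HTA1*, was within its SD of 2.45 min and lay between 1.65 and 2.57 min when single timepoints were left out. Relatively later by over 2 min were 41 of 44 histone bins in the first background, where 33.8% of all bins were, and 31 of 44 in the second, where 29.5% of all bins were. Among the earliest 10% of bins these shares were higher, as given below. Relatively earlier by over 2 min were 0 of 44 histone bins in either, against 35.0% and 31.0% of all bins.

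**Figure D3:**
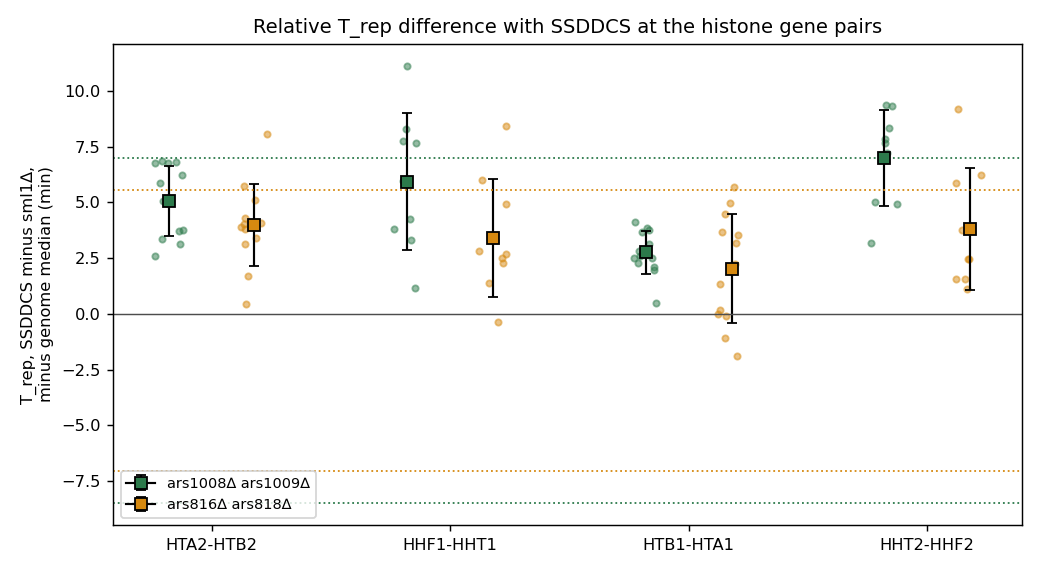
Difference in *T*_rep_ (*sml1∆ SSDDCS* minus *sml1∆*, in min) less the median difference of all bins, for each histone bin (points) and as the mean and SD over the bins of each pair (squares), without *ARS1008* and *ARS1009* (green) or *ARS816* and *ARS818* (orange). Dotted lines mark the 5th and 95th percentile of all bins in each background. The squares lie above 0 at every pair, lowest at *HTB1*-*HTA1* (2.75 and 2.02 min).

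Early parts of the genome were relatively later with *SSDDCS* in general, so the pairs were set beside bins that replicated about as early. To keep the choice of those bins apart from the difference, they were ranked in the *sml1∆* strain of the other background, and histone bins were left out. Among the earliest 10% the median relative difference was 3.03 min (quartiles 0.918 and 4.86 min) without *ARS1008* and *ARS1009* and 2.28 min (quartiles 0.588 and 3.66 min) without *ARS816* and *ARS818*. Of these earliest bins, 62.6% and 53.9% were relatively later by over 2 min, a larger share than that of all bins. The medians and quartiles are of single bins, while each pair value is a mean over its window. *HTB1*-*HTA1* was near these medians in both backgrounds, *HTA2*-*HTB2* was above the upper quartile in both, and *HHF1*-*HHT1* was above it in the first. This placement changed with single samples in a check chosen after seeing the data, in which each timepoint was left out in turn and pair, ranks and quartiles were refitted: *HTA2*-*HTB2* was below the quartile without the 15 min sample (4.93 against 5.14 min, and 3.51 against 3.58 min in the second background) or the 20 min sample (3.92 against 4.99 min, and 4.299 against 4.43 min), and *HHF1*-*HHT1* in the first without the 5 min sample (4.196 against 4.68 min). *HHT2*-*HHF2* belonged with the bins between the 25th and 50th percentiles, whose median was 0.342 min (quartiles -2.69 and 3.15 min) and 0.339 min (quartiles -1.99 and 2.56 min), and it was above the upper quartile in both, whichever 1 timepoint was left out. Without the bins that hold coding sequence, *HHT2*-*HHF2* was at 6.35 min in the first background. In the second it was then at 2.57 min, almost equal to the upper quartile.

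*HTA2*-*HTB2* is a centromere neighbour, and its percentiles lay within those of the other centromeres. Bins within 10 kb of the other 15 centromeres had a median percentile of 12.1 (5.88 to 25.8) and 9.03 (4.14 to 27.2) in the *sml1∆* strains and 43.9 (24.2 to 71.7) and 35.4 (18.4 to 59.4) with *SSDDCS*. Their relative difference had a median of 4.24 min (2.27 to 7.23 min) without *ARS1008* and *ARS1009* and 3.06 min (1.87 to 3.87 min) without *ARS816* and *ARS818*, against 5.06 and 3.98 min at *HTA2*-*HTB2*, the latter just above the highest. Annotated origins moved the other way, from a median percentile of 32.5 and 31.2 in *sml1∆* to 17.6 and 17.3 with *SSDDCS*. The part of the centromere and that of *ARS208* in the timing of *HTA2*-*HTB2* cannot be told apart, since they lie side by side.

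The bins within 2 kb of *ARS208* were at the 2.82 and 4.14 percentiles in *sml1∆* and at 20.5 and 28.3 with *SSDDCS*, and those of *ARS209* at 1.03 and 7.08 and then at 22.0 and 39.5. *ARS428* was at 3.51 and 2.61 in *sml1∆* and 8.03 and 5.08 with *SSDDCS*, and *ARS429* at 11.5 and 4.64 and then at 8.98 and 15.5. The origins beside *HTB1*-*HTA1* were therefore earlier in the order than those of chromosome II in both *SSDDCS* strains. The bins of *ARS208*, *ARS209* and *ARS428* lie inside the windows of the pairs, and those of *ARS429* in part. These values are thus not separate from those of the pairs. *ARS1423*, near *HHT2*-*HHF2*, had 2 bins, at the 2.38 and 14.2 percentiles in *sml1∆* and 31.2 and 34.0 with *SSDDCS*.

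Along the chromosome, smoothed *T*_rep_ within 15 kb of *HTB1*-*HTA1* had its lowest point without *ARS1008* and *ARS1009* at -1.62 kb from the middle of the pair in *sml1∆* and at -6.62 kb with *SSDDCS*. Without *ARS816* and *ARS818* it was at -2.62 kb with *SSDDCS* and in *sml1∆* at 8.38 kb, beyond *ARS429*. Around *HHF1*-*HHT1* the lowest point was -0.557 kb from the middle in both *sml1∆* strains and -2.56 kb in both *SSDDCS* strains, on the side of *ARS209*. Around *HHT2*-*HHF2* it was at -14.8 kb in each of the 4 strains, at the edge of the range searched and next to *ARS1422* at -15.1 kb. Its lowest value was 13.03 and 19.7 min in *sml1∆* and 11.3 and 17.1 min with *SSDDCS*, so with *SSDDCS* the pair itself was replicated about as late as in *sml1∆* while *T*_rep_ at the near side of *ARS1422* was lower. That change was smaller in size than the genome-wide median differences of -5.51 and -4.18 min, so this site was also relatively later with *SSDDCS*.

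**Figure D4:**
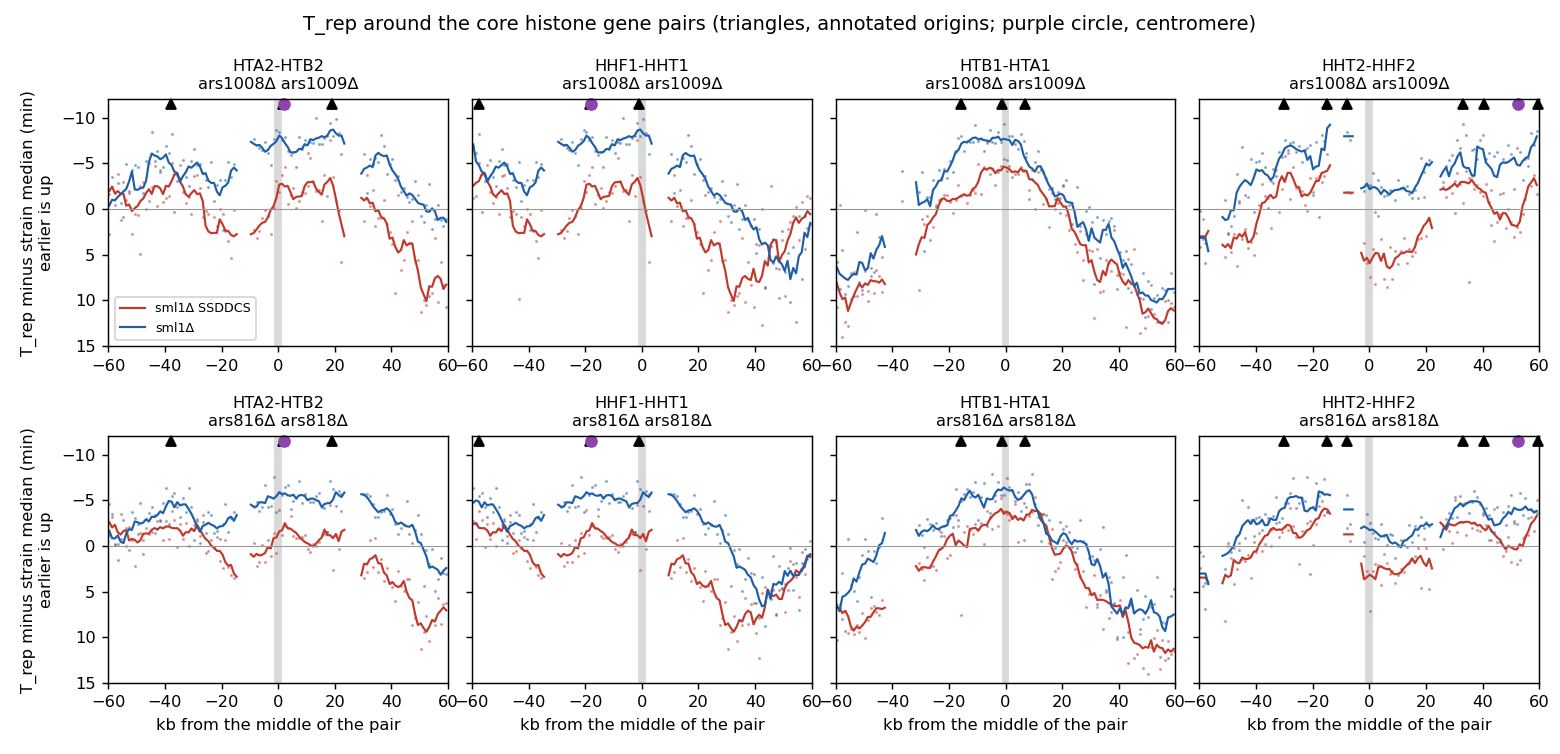
*T*_rep_ minus the median of the strain (min, earlier is up) against distance in kb from the middle of each histone gene pair (grey bar), as single bins (dots) and a running mean over 5 bins (lines, broken where bins are absent), for *sml1∆ SSDDCS* (red) and *sml1∆* (blue). Triangles mark annotated origins and purple circles the centromere. *HTB1*-*HTA1* sits on a peak in both strains, and *HHT2*-*HHF2* in a dip between origins on either side.

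Across the backgrounds, the same *SSDDCS* status gave like positions. After subtraction of the genome median, *T*_rep_ without *ARS1008* and *ARS1009* minus that without *ARS816* and *ARS818* was 0.0243 ± 2.001 min at *HTA2*-*HTB2*, -0.0546 ± 4.398 min at *HHF1*-*HHT1*, -0.885 ± 1.84 min at *HTB1*-*HTA1* and 2.805 ± 3.20 min at *HHT2*-*HHF2* with *SSDDCS*. In *sml1∆* the same differences were -0.886 ± 1.48, -2.41 ± 1.96, -1.45 ± 1.90 and -0.207 ± 1.35 min. The difference at *HHF1*-*HHT1* in *sml1∆* was the one that exceeded its SD.

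A list of other histone genes (the linker histone *HHO1* and the variants *HTZ1* and *CSE4*) and genes whose products regulate, carry or modify histones did not share the early place of the 3 pairs. Of its 21 genes, 2 and 3 lay in the earliest 25% in *sml1∆*, and 2 and 4 with *SSDDCS*, against 25.0% of all bins, and the median percentiles were 59.2 and 51.1, and 54.6 and 46.5. Relatively later by over 2 min were 5 genes without *ARS1008* and *ARS1009* and 2 without *ARS816* and *ARS818*, against 33.8% and 29.5% of all bins, and relatively earlier were 4 and 2, against 35.0% and 31.0% of all bins, with median relative differences of 0.819 and 1.252 min. Each gene value is a mean over its window, while these shares are of single bins, so they are not like for like. Shares among windows of equal size are not given here. The earliest in *sml1∆* without *ARS1008* and *ARS1009* were *HIR3*, a subunit of the HIR complex that represses histone transcription (13.4 percentile), and *RTT109*, which encodes the acetyltransferase of newly made histone H3 (20.1). Both were also first without *ARS816* and *ARS818*, at 13.6 and 11.98. With *SSDDCS* the earliest were *SWI6*, a subunit of the G1/S transcription factors (18.3), and *NAP1*, an H2A-H2B chaperone (23.8), in the first background, and *NAP1* (16.1) and *HIR3* (18.9) in the second.

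The latest were *ASF1*, which encodes an H3-H4 chaperone, and *YTA7*, which encodes an ATPase with a bromodomain, at 99.0 and 96.8 in *sml1∆* without *ARS1008* and *ARS1009*. *YTA7* (96.6) and *HPC2* of the HIR complex (85.1) were latest in *sml1∆* without *ARS816* and *ARS818*. With *SSDDCS* they were *ASF1* (97.7) and *HIR2*, also of the HIR complex (94.4), in the first background, and *HIR2* (95.4) and *HPC2* (94.5) in the second. *ASF1* lies 6.90 kb from *ARS1008*, and where that origin was present it was at the 29.5 percentile in *sml1∆* and the 44.2 percentile with *SSDDCS*. *SPT10*, an activator of histone genes 19.8 kb from *ARS1008*, was at 93.6 and 93.8 in the *sml1∆* and *SSDDCS* strains without *ARS1008* and *ARS1009*, and at 46.7 and 73.1 in those without *ARS816* and *ARS818*. Thus 2 genes of histone supply were late in the strains without *ARS1008* and *ARS1009*, and neither was in the latest 25% in the strains that kept them.

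**Figure D5:**
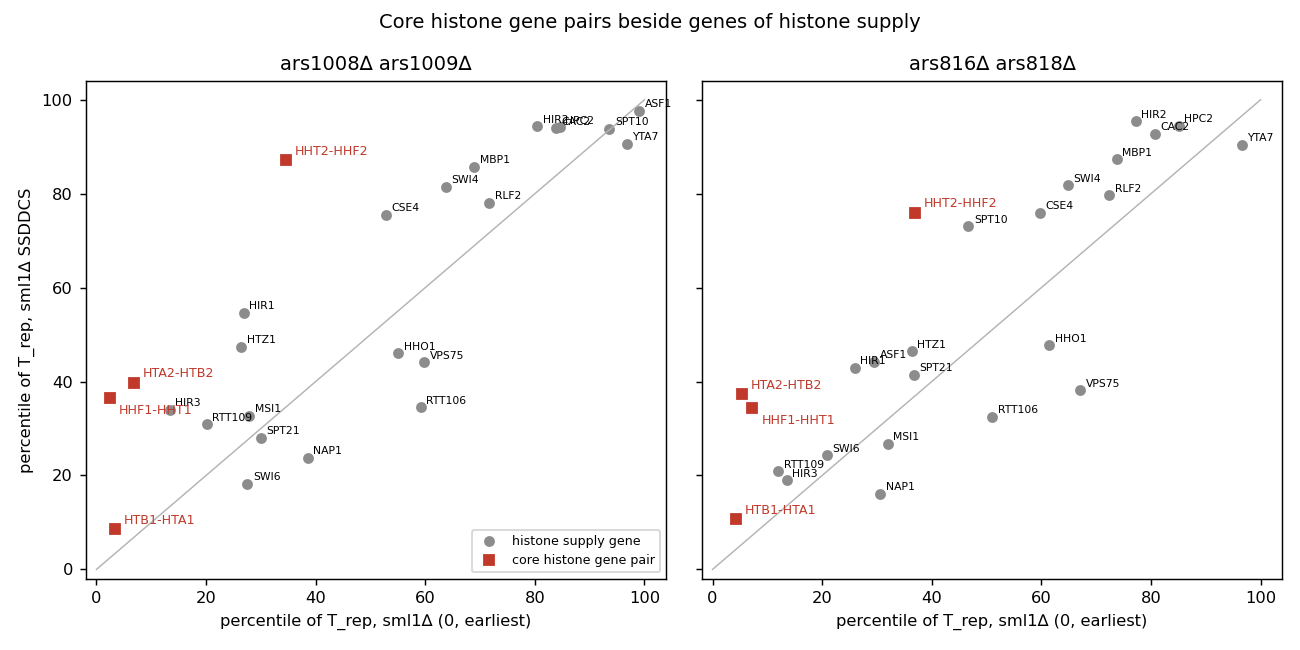
Percentile of *T*_rep_ in *sml1∆ SSDDCS* against that in *sml1∆* (0 is earliest) for the core histone gene pairs (red squares) and the 21 listed genes of other histones and of histone supply or modification (grey circles) in each background, with the line of equality. The 4 pairs lie above the line, *HHT2*-*HHF2* farthest, and *ASF1* and *SPT10* lie at the late end without *ARS1008* and *ARS1009*.

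Genes elsewhere with the most similar course were found by the root mean square difference in ratio over the genome median across the 44 samples, over the bins within 5 kb of each of 4944 genes with a standard 3-letter symbol, at least 9 bins and more than 50 kb to any core histone gene pair. For *HTA2*-*HTB2* they were *IRC22* (0.0172) and *CDC5* (0.0177), the polo kinase gene, against a median of 0.0947 over all genes searched, and both lie about 1 kb from a centromere (1.07 and 0.929 kb). For *HHF1*-*HHT1* they were *GIS4* (0.0234) and *PMC1* (0.0249), a vacuolar calcium pump gene, 9.67 and 7.54 kb from a centromere. For *HTB1*-*HTA1* they were *HOG1* (0.0182), the osmotic stress kinase gene, and *HXT6* (0.0205), a hexose transporter gene, 220.7 and 709.8 kb from one. For *HHT2*-*HHF2* they were *EDC3* (0.0199), whose product promotes mRNA decapping, and *PRE6* (0.0208), a proteasome subunit gene, 23.8 and 70.5 kb from one. Among the pairs themselves, *HHF1*-*HHT1* and *HTA2*-*HTB2* differed by 0.0306 and *HHT2*-*HHF2* and *HTB1*-*HTA1* by 0.120.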

How the data were processed

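The authors arrested cells in G1 with alpha factor, added galactose, released them and collected genomic DNA at each timepoint. The submitters' processing notes name sacCer3 (R64), Bowtie2 2.3.4, SAMtools 1.7.2 and bedtools 2.26.0, and the study's methods name other versions of Bowtie2 and SAMtools. The deposited ratio is the uniquely mapped reads of a timepoint over those of G1 in 1-kb bins, scaled by a bulk value between 1 and 2 that the authors derived from flow cytometry, so its level in a sample depends on that value. The bulk value is deposited beside it as a ratio factor.

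From the ratios, a least-squares logistic with asymptotes 1 and 2 was fitted to each bin with 6 or more timepoints (Python 3.11.15, numpy 2.4.6) and *T*_rep_ kept from 0 to 60 min. It was tested on simulated data. Windows ran from 5 kb below to 5 kb above each pair in whole kb. The named genes were the 8 core histone genes, origins within 15 kb or nearest, 21 genes of other histones and of histone supply or modification with the earliest and latest 2 per strain, and the 2 genes most like each pair. The limit of the latter to standard 3-letter symbols was not in that rule and was added later. Members and lists were chosen with earlier results of these data known. Alternatives changed the fit, timepoints, bulk values, windows, centring and ranking. G1 samples had no file here and were not analysed. No test was made, since each strain had 1 time course.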

Additional observations from a re-analysis of the deposited data

How the results depend on the processing

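No paired analysis was possible because each strain had 1 time course and so shared 1 replicate number; strains were compared within each origin background, and no test was made over the 2 backgrounds. Of 192 relative differences recomputed for the 4 pairs in 2 backgrounds under 24 alternatives, 186 were above 0. The 6 below 0 came from not subtracting the genome-wide median, which gives the difference in min after release: -0.447 and -0.202 min at HTA2-HTB2, -2.75 and -2.16 min at HTB1-HTA1, -0.772 min at HHF1-HHT1 and -0.375 min at HHT2-HHF2 without ARS816 and ARS818. The other values without subtraction were 0.425 min at HHF1-HHT1 and 1.48 min at HHT2-HHF2 without ARS1008 and ARS1009. Centring on bins of the earliest 25%, an alternative chosen after seeing the data, gave 2.57 min at HTA2-HTB2, 0.266 min at HTB1-HTA1 and 4.50 min at HHT2-HHF2 in that background, and 0.218 min at HTB1-HTA1 without ARS816 and ARS818. Leaving out 1 timepoint gave 3.92 to 5.45 min at HTA2-HTB2, 4.20 to 6.58 min at HHF1-HHT1, 2.02 to 3.17 min at HTB1-HTA1 and 5.60 to 7.53 min at HHT2-HHF2 without ARS1008 and ARS1009, and 3.51 to 4.47, 3.13 to 4.23, 1.65 to 2.57 and 3.54 to 4.12 min without ARS816 and ARS818. At HTB1-HTA1 in the latter, 10 of 22 alternatives in min that kept a centring passed 2 min, and it fell below without the sample at 5, 10, 15, 25 or 30 min (1.999, 1.91, 1.65, 1.94 and 1.99 min). In the order HTA2-HTB2, HHF1-HHT1, HTB1-HTA1 and HHT2-HHF2, values without bins of coding sequence were 4.99, 5.90, 2.92 and 6.35 min without ARS1008 and ARS1009. Without ARS816 and ARS818 they were 4.18, 2.77, 1.94 and 2.57 min. With a free upper asymptote they were 5.28, 4.72, 2.59 and 6.87 min, and 3.75, 3.00, 1.94 and 3.95 min, in the same order.

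The share of histone bins in the earliest part of the genome with SSDDCS was 22.7% and 20.5% for the earliest 10%, in the order of backgrounds above, and 68.2% for the earliest 50% without ARS816 and ARS818, since 10% or 50% of all bins then counts. The percentile of HHF1-HHT1 in SSDDCS without ARS816 and ARS818 was 34.3, but 23.8 by first crossing of 1.5. Without ARS1008 and ARS1009 it was 36.5, but 19.6 without the sample at 5 min and 17.8 by first crossing of 1.5. HTA2-HTB2 in sml1∆ of that background was at 11.6 without the sample at 20 min, and HTB1-HTA1 at 5.97 without that at 15 min. Both shifts were within the SD of the bins. Ranked by mean ratio over the genome median, HTA2-HTB2 and HHT2-HHF2 in the same strain were at 15.4 and 48.9, shifts beyond that SD. By this measure HHT2-HHF2 in SSDDCS without ARS816 and ARS818 was at 64.7 in place of 76.0, a shift within it. The cause was not tested. Of 336 percentiles recomputed, 327 stayed within the SD of the bins. The 9 that did not came from ranking among sliding windows or by mean ratio over the genome median. Each strain is 1 culture of unknown read depth, and neighbouring bins share forks, so no value here carries a replicate error.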
